A study of Mus musculus with 2 samples.

Results

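Hspa5, Manf, Creld2, Sdf2l1, Hyou1, Dnajb9, Dnajc3, Pdia4, Hsp90b1 and Ddit3 are 10 of the 32285 genes listed in both count matrices, and they encode chaperones and other products of the endoplasmic reticulum (ER) stress response. They were chosen by symbol with their levels in these cells already known, above all their high share in deeply sequenced epithelial cells, so those levels are a description and carry no test. The data are droplet-based single-cell counts of transcript 3′ ends from whole uteri of 6-month-old female mice. The control library came from mice with floxed Prickle1 alleles (Prickle1 f/f), and the conditional knockout (cKO) library from mice that carried these alleles and an Ltf-driven Cre (Prickle1 f/f Ltf-cre). Ltf, the lactoferrin gene, is transcribed in uterine epithelium, so the deletion is aimed at that layer. Both floxed groups were digested with collagenase and DNase for 5 hours, and each was 1 library from a pool of 3 animals. A separate genotype entry in the labels calls both samples C57BL/6J wild-type, which differs from their titles, and the titles were followed. With 1 library per group there is no replicate check. Intervals in the text are 95% intervals that cover counting error only, and genotype, animals, dissociation and library cannot be told apart.

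Proteins that enter the secretory pathway fold inside the ER with the help of BiP, the product of Hspa5, together with its co-chaperones, the ER form of Hsp90 and disulfide isomerases. When unfolded protein accumulates, BiP leaves the membrane sensors IRE1, PERK and ATF6, and the factors they activate (XBP1, ATF4 and cleaved ATF6) raise transcription of these same chaperones. This unfolded protein response is prominent in secretory cells, among which uterine glandular and luminal epithelium are counted, and when it is strong and prolonged PERK and ATF4 induce Ddit3, which encodes the transcription factor CHOP.

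The classical regulatory sequence of this response is the ER stress element, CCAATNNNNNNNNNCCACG, in which NF-Y contacts the first block and ATF6 or XBP1 the last. RefSeq promoter windows (GRCm38.p6, 250 bases before to 50 after the gene start) were matched for 8 of the 10 genes, all but Manf and Hyou1. The element, searched on both strands, was found in 4 of the 8, against 39 of 32851 promoter windows (0.119%). These are the sites, 5′ to 3′ in the orientation of the element, with its fixed blocks in capitals:

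Hspa5, chr2:34772025-34772043: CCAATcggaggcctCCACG

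Creld2, chr15:88819520-88819538, opposite to the gene: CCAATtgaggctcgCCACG

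Dnajc3, chr14:118937827-118937845: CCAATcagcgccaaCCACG

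Hsp90b1, far site, chr10:86705638-86705656: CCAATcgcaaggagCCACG

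Hsp90b1, near site, chr10:86705533-86705551, opposite to the gene: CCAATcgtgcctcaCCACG

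The Hspa5 window is shown whole because this gene supplied more of the summed UMIs than any other member and the window has 4 CCAAT blocks. In GENCODE M21 the gene starts at chr2:34771970, upstream of the element. The window is chr2:34771840-34772139, plus strand, with the ER stress element in capitals, 65 to 47 bases before the RefSeq gene start:

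Hspa5 promoter: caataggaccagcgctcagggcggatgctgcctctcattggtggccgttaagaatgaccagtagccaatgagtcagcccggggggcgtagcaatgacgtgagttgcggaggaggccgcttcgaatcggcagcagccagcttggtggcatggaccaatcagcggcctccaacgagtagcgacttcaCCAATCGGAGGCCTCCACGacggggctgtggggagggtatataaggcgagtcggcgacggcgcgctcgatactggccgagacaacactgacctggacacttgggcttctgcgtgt

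The short blocks alone are common: CCAAT was in 8 of 8 member windows and in 37.4% of all windows, and CCACG in 7 of 8 and in 32.8%. The windows of Sdf2l1, Dnajb9, Pdia4 and Ddit3 did not hold the complete element. The related letters ATTGGNCCACG (ERSE-II, in 0.0365% of windows) and TGACGTGG (the core of the UPRE, in 0.676%) were in 0 of the 8. A match of letters is a description and no evidence of a bound site.

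Cells were barcodes with at least 500 genes and at most 20% mitochondrial unique molecular identifiers (UMIs), which gave 3653 control and 4950 cKO cells with medians of 4650 and 5944 UMIs. The libraries held 45035801 and 57145553 UMIs, and 5 cell barcodes occurred in both. Classes were set by 1 or more UMIs of a marker: Epcam (epithelium), Pdgfra (stroma), Actg2 (muscle), C1qa (macrophages) and Cd3e or Ncr1 (lymphoid cells), and a cell could be in more than 1 class. Epcam-positive cells were split by depth into deep (20000 UMIs or more), shallow (under 10000) and middle cells. The label fitted the markers in control, where a list of 13 epithelial genes was the leading marker list in 271 of 291 deep cells (93.1%) and 594 of 629 shallow cells. In cKO it led in only 32 of 74 deep (43.2%) and 17 of 66 shallow cells (25.8%). The cKO deep cells also carried stromal markers (10 of 10 detected, 4621 CPM, that is UMIs of the genes per 1000000 UMIs of the class) and B or plasma cell markers (6651 CPM), of which Igkc, with 24397 UMIs, was found in 10 of the 74 cells and to 36.2% in 1 cell. In control deep cells these lists summed to 618 and 4.46 CPM. Every cKO value for Epcam-positive cells below is therefore given for a mixed class, and its epithelial-led cells are named where they differ.

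Among the classes compared, deep control epithelial cells had the highest summed share of the 10 genes. Their summed level was 8442 CPM (8396 to 8489; 291 cells), that is 0.844% of all UMIs. In the other control classes the sum was 3183 CPM in shallow Epcam-positive cells, 3616 in Pdgfra-positive, 4018 in Actg2-positive, 4305 in C1qa-positive and 2730 in lymphoid cells. In cKO the order was different, with Pdgfra-positive cells highest at 5174 CPM (5149 to 5200; 1648 cells), then 3895 in deep Epcam-positive cells, 3456 in Actg2-positive, 3237 in C1qa-positive, 3081 in lymphoid and 2617 in shallow Epcam-positive cells. Within these orders of 6 classes the counting intervals of neighbours did not overlap, but they leave out the spread over cells. By the median cell, cKO Pdgfra-positive and deep Epcam-positive cells were alike, at 3660.7 and 3666.5 CPM. In control, deep Epcam-positive cells kept the highest median, 5421.6 CPM, and Actg2-positive cells had the lowest, 1228.5 CPM. Middle Epcam-positive cells, not counted among the 6, lay at 4011 CPM (control, 3919 to 4104), which overlaps the Actg2-positive value, and 4299 CPM (cKO). The place of Actg2-positive cells depended on cells with several markers: those of no other class held 1608 CPM in control, the lowest of the classes so restricted, and 2391 CPM in cKO. Free RNA in barcodes of at most 100 UMIs carried the 10 genes at 2546 CPM (control) and 2891 CPM (cKO), so a class near that level cannot be told from background by level alone.

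**Figure D1:**
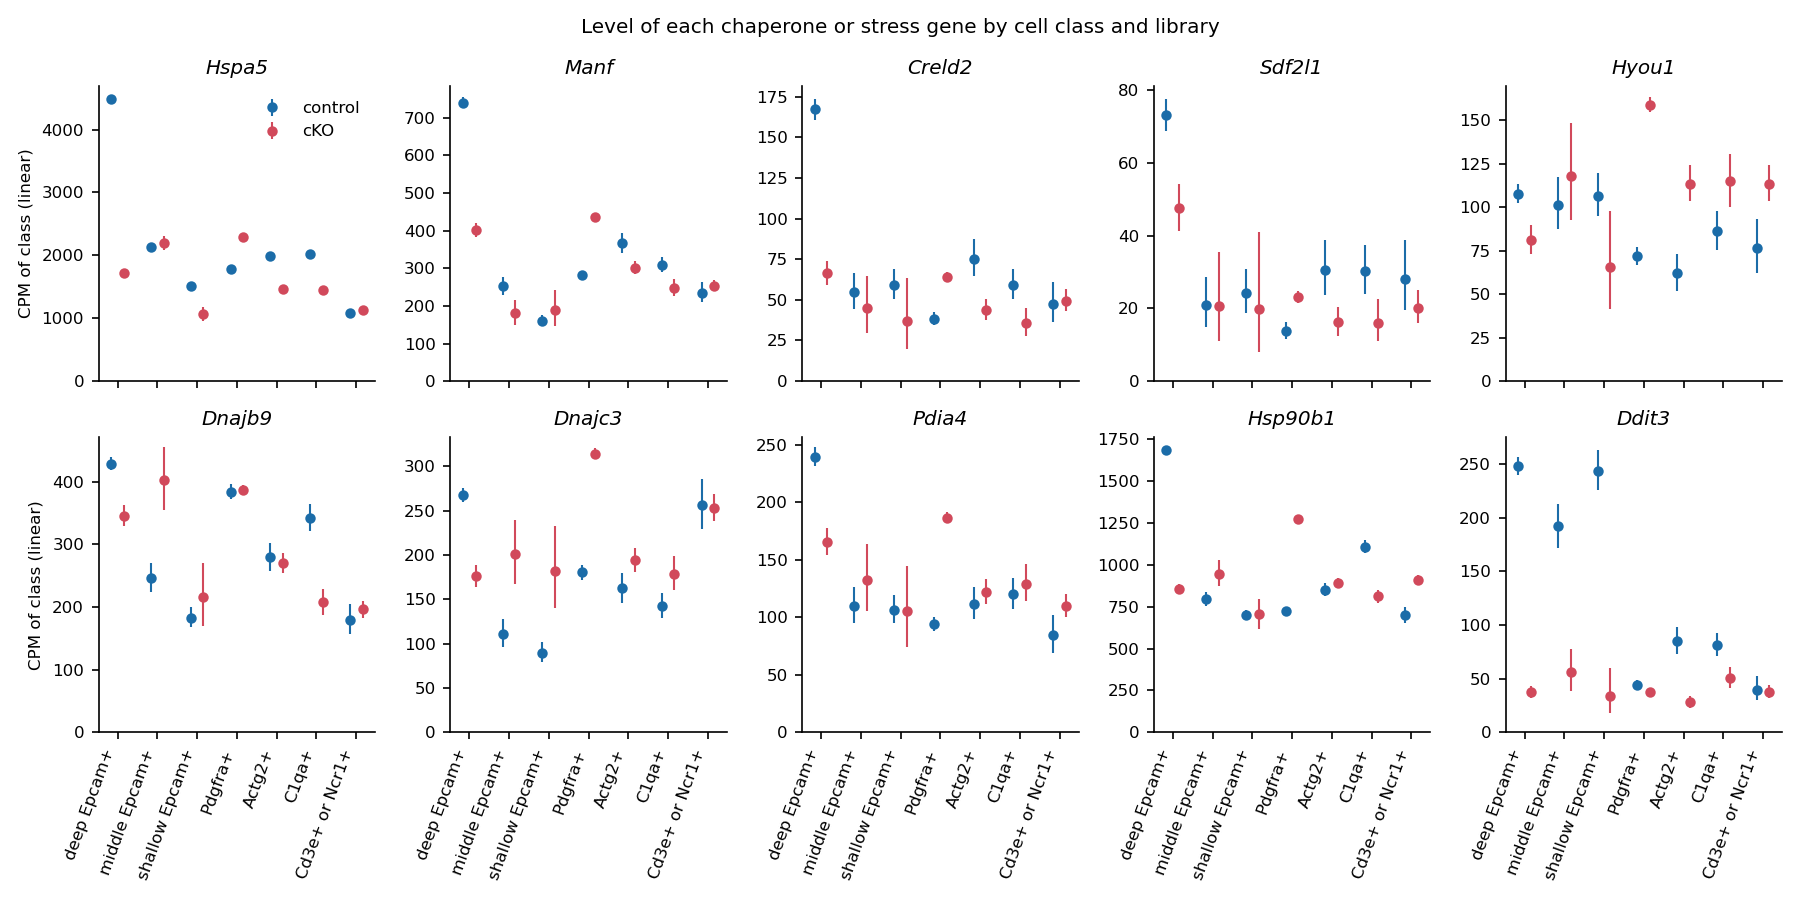
Level of each of the 10 genes in CPM of the class total (linear vertical axes starting at 0), by cell class, for the control and cKO libraries; points are sums over all cells of a class and bars are exact Poisson 95% intervals. Hspa5 stands at 4482 CPM in control deep Epcam-positive cells and at 2295 CPM or below in every other class of either library, and Ddit3 stands at 192 CPM or above in the 3 control Epcam-positive classes and at 84.8 CPM or below elsewhere.

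Hspa5, the central ER chaperone, supplied 53.1% of the summed UMIs in control deep cells, where each UMI stands for 1 transcript end and needs no scaling by length. It stood at 4482 CPM there and at 2126 CPM in middle and 1508 CPM in shallow Epcam-positive cells. Pdgfra-positive cells had 1786 CPM, Actg2-positive 1994, C1qa-positive 2023 and lymphoid cells 1084 CPM. In cKO the same classes had 1716, 2195, 1063, 2295, 1472, 1444 and 1135 CPM. Control deep epithelial cells thus stood apart from all 13 other class and library combinations, which ran from 1063 to 2295 CPM. Hsp90b1, the ER member of the Hsp90 family, followed it with 1688 CPM in control deep cells against 701 CPM in shallow cells. Its cKO values peaked in the stroma, at 1271 CPM in Pdgfra-positive against 858 CPM in deep Epcam-positive cells.

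The co-chaperones that drive the BiP cycle differed among themselves. Dnajb9, a J-domain protein that brings BiP to IRE1, had 429 CPM in control deep Epcam-positive cells and 384 CPM in Pdgfra-positive cells, a ratio of 1.12. Dnajc3, the J-domain protein that restrains PERK, had 268 CPM in control deep cells and 256 CPM in lymphoid cells, whose intervals overlapped (259 to 276 and 229 to 285). In cKO its highest value was in Pdgfra-positive cells, at 314 CPM. Hyou1, the nucleotide exchange factor that releases substrate from BiP, showed no preference for deep cells: it had 108 CPM in deep and 107 CPM in shallow control Epcam-positive cells, and reached 159 CPM in cKO Pdgfra-positive cells.

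Manf, a small protein that binds BiP and can be secreted, had 740 CPM in control deep and 161 CPM in control shallow Epcam-positive cells. Creld2, an ER stress-induced protein with disulfide isomerase activity, had 167 CPM and 59.1 CPM in the same classes. Sdf2l1, a partner of the J-domain proteins in the ER lumen, had 73.1 and 24.3 CPM, and Pdia4, a disulfide isomerase, 240 and 107 CPM. All 4 were thus higher in deep than in shallow control epithelium by more than their counting error. Sdf2l1 was the one member at least 2-fold higher in deep Epcam-positive than in Pdgfra-positive cells in both libraries, with 13.9 CPM in control and 23.1 CPM in cKO Pdgfra-positive cells and 47.5 CPM in cKO deep Epcam-positive cells. In that last class 28.4% of its UMIs came from 1 cell.

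Ddit3 in the epithelium differed by library more than by depth. It had 248 CPM in deep, 192 CPM in middle and 243 CPM in shallow control Epcam-positive cells, against 37.2, 55.8 and 34.1 CPM in the cKO classes. Free RNA held it at 116 CPM in control and 38.1 CPM in cKO, so the control epithelium stood above that level, while the deep and shallow cKO intervals (31.9 to 43.3 and 17.6 to 59.6 CPM) include it. Outside the epithelium it was low in both libraries, from 39.8 to 84.8 CPM in control and from 27.9 to 50.1 CPM in cKO. Ddit3 has 2 rows in the matrices, and the second held 0 UMIs, so all values are from the first (ENSMUSG00000025408, chr10:127290774-127296288). Its gene overlaps Mars on the opposite strand, and Manf and Hsp90b1 overlap same-strand neighbours (Rbm15b and Gm15344), so a part of their UMIs could be assigned differently.

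Within the control epithelium the chaperones were higher in the deep cells. Summed over the 10 genes, deep cells were 2.65-fold above shallow cells (2.60 to 2.71; log2 ratio 1.41). At least 2-fold higher were 8 of the 10 genes, while 7.67% of all 10444 genes with at least 50 UMIs in both classes together were. The fold was 4.61 for Manf, 3.01 for Sdf2l1, 2.98 for Dnajc3, 2.97 for Hspa5, 2.83 for Creld2, 2.41 for Hsp90b1, 2.35 for Dnajb9 and 2.25 for Pdia4. Hyou1 (1.01, interval 0.892 to 1.15) and Ddit3 (1.02, interval 0.937 to 1.11) had intervals that include 1. The member median was 1.38 on the log2 scale and that of all genes -0.03. The rule used this contrast, so nothing further is read from the count.

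Most of the difference lay across 1 depth limit. Control Epcam-positive cells held 3141 CPM below 2500 UMIs, 2812 CPM at 2500 to 5000, 3452 CPM at 5000 to 10000 and 4011 CPM at 10000 to 20000 UMIs. Just above the limit, at 20000 to 40000 UMIs, they held 9463 CPM, and at 40000 or more 8034 CPM. Pdgfra-positive control cells, which share the library and its free RNA, went from 5244 CPM below 2500 UMIs to 3317 CPM at 20000 to 40000 UMIs, and held 4446 CPM at 40000 or more. At least 2-fold higher in deep than in shallow Pdgfra-positive cells were 0 of 10 genes in control (4.82% of all genes) and 0 of 10 in cKO (4.66%). Deep Actg2-positive cells were 3.22-fold above shallow ones in control, with 10 of 10 genes at least 2-fold higher (15.1% of all genes), and 2.15-fold in cKO, with 7 of 10 (11.0%). Of the 27 deep Actg2-positive control cells 11 also had an Epcam UMI. Over all 369 Actg2-positive control cells 22.8% of the 8955 summed UMIs came from 1 cell, and the deep cells held 6316 of them. Only 2 of those 27 cells had the marker of no other class, and they stood 1.43-fold above the shallow cells so restricted (123 UMIs, interval 1.17 to 1.72). In cKO 6 deep cells of no other class stood 3.08-fold above (2.87 to 3.31). Lymphoid cells had a deep to shallow ratio of 1.70 in control, with 3 of the 8 genes that had enough UMIs at least 2-fold higher (13.6% of all genes), and 1.46 in cKO. In cells of no other class these were 0.559 (1 deep cell) and 0.670 (9 deep cells). In C1qa-positive cells the ratio was 1.31 in control and 0.975 in cKO, and in those of no other class 1.61 (8 deep cells) and 0.480 (5 deep cells). Restricted in the same way, an alternative chosen after seeing the data, Epcam-positive cells had ratios of 2.67 in control and 1.58 in cKO, and Pdgfra-positive cells 0.744 and 1.01.

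**Figure D2:**
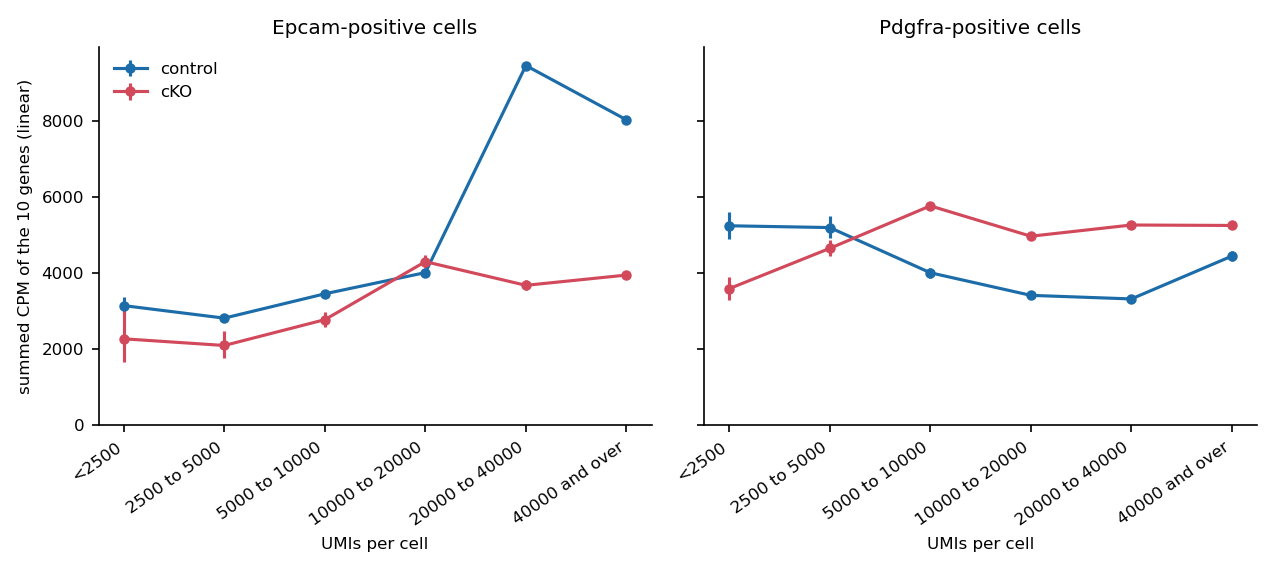
Summed CPM of the 10 genes (linear axis from 0) against UMIs per cell in 6 ranges, for Epcam-positive and Pdgfra-positive cells of the control and cKO libraries; bars are exact Poisson 95% intervals. The control epithelial line steps from 4011 to 9463 CPM at 20000 UMIs, the cKO epithelial line stays between 2092 and 4299 CPM, and neither stromal line shows that step.

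In cKO Epcam-positive cells the deep to shallow ratio was 1.49 (1.39 to 1.59; log2 ratio 0.57). Only Sdf2l1 (2.39, from 218 and 7 UMIs, interval 1.14 to 6.01) and Manf (2.11) were at least 2-fold higher, 2 of 10 genes against 14.7% of all genes. Among epithelial-led cells alone (32 deep, 17 shallow) the log2 ratio was 0.74. Cells of cKO at 10000 to 20000 UMIs held 4299 CPM, those at 20000 to 40000 held 3676 CPM, and all deep cells held 3895 CPM. The order of middle and all deep cells turned round in epithelial-led cells, with 2984 CPM in the 11 middle and 3660 CPM in the 32 deep cells, against 4281 and 8720 CPM in the epithelial-led control cells.

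Deep control epithelium was compared with the other cell types in the same library. At least 2-fold higher were 7 of 10 genes against Pdgfra-positive cells (19.7% of all genes), 6 against Actg2-positive cells (11.8%), 5 against C1qa-positive cells (24.2%) and 8 against lymphoid cells (17.6%). Ddit3 had the highest of these folds against each class, from 2.92 (Actg2-positive) to 6.23 (lymphoid), and Hyou1 and Dnajc3 passed in none. Since the rule compared these classes, the counts describe the choice.

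Single cells within the deep control class spanned a wide range. Their summed share had a median of 5422 CPM, with quartiles at 2504 and 12773 CPM, and ran from 697 to 41712 CPM. In cKO deep Epcam-positive cells the median was 3667 CPM and the highest cell had 13545 CPM. Above that highest cKO cell lay 67 of the 291 control cells (23.0%), and the lower parts of both distributions overlapped. In control no single cell supplied more than 2.69% of the summed UMIs, while in cKO 1 cell supplied 12.4%.

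**Figure D3:**
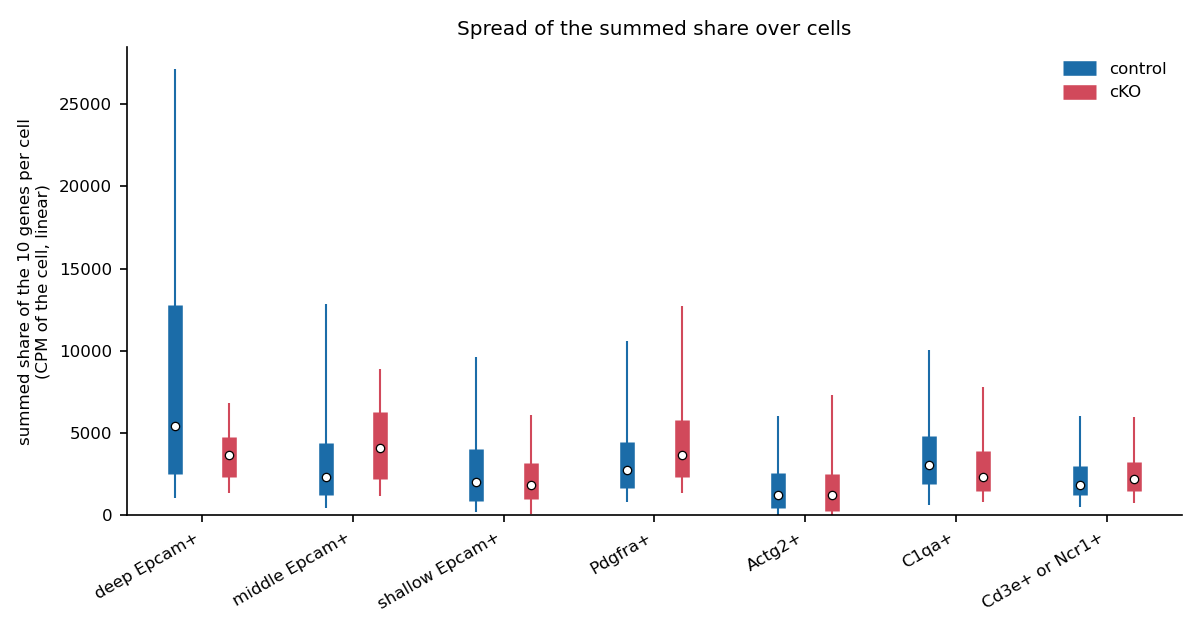
Summed share of the 10 genes in single cells, in CPM of the cell (linear axis from 0), by class and library; thick bars span the quartiles, thin lines the central 90% of cells and white points the median. The control deep Epcam-positive cells reach 27114 at the upper end, against 6809 in cKO, while the medians of 5422 and 3667 lie closer together.

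Ranking the 291 control deep cells by Hspa5 set the 72 cells with the highest share, at 11228 CPM, against the 72 with the lowest, at 654 CPM. Their depth was alike (median 36667 and 36235 UMIs), and the epithelial markers led in 72 and 65 of the 72 cells. The other 9 genes, which the ranking did not use, were all at least 2-fold higher in the Hspa5-high cells, against 10.3% of all genes. Creld2 went from 25.3 to 508 CPM (20.1-fold), Sdf2l1 from 12.4 to 218 CPM (17.6-fold), Ddit3 from 41.0 to 562 CPM (13.7-fold) and Hyou1 from 28.0 to 287 CPM (10.2-fold). Hsp90b1 (9.31-fold), Manf (9.31-fold), Pdia4 (7.54-fold), Dnajc3 (6.60-fold) and Dnajb9 (6.04-fold) followed. Hyou1 and Ddit3, which did not differ between deep and shallow cells by more than counting error, thus varied with Hspa5 from cell to cell. Counts share each cell's total, and cells are not replicates.

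The same ranking in the stroma gave smaller folds. Between the 44 highest and 44 lowest of 178 deep Pdgfra-positive control cells (3808 and 515 CPM of Hspa5), 9 of 9 genes were at least 2-fold higher (6.04% of all genes), from 2.54-fold for Hyou1 to 15.5-fold for Sdf2l1 (interval 5.77 to 58.5). Between the 137 highest and 137 lowest of 549 cKO cells 9 of 9 were as well (4.07% of all genes), from 3.18-fold for Ddit3 to 9.17-fold for Sdf2l1. In cKO deep Epcam-positive cells the 2 sets were 18 cells each and differed in cell type, with epithelial markers leading in 3 of the high and 11 of the low cells and stromal markers at 7324 against 1258 CPM, so their gene differences are not described.

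Other genes of the secretory pathway were compared between the 72 Hspa5-high and the 72 Hspa5-low control deep cells, where 10.3% of all genes were at least 2-fold higher and 21.7% lower. Of 19 ER-associated degradation genes 10 were at least 2-fold higher and 0 lower. Herpud1, which organises the ubiquitin ligase complex in the ER membrane, was 15.6-fold higher, and Sel1l, its adaptor, had a log2 ratio of 3.21. Derl3, a channel component, had 89 against 1 UMIs, a ratio of 99.0 with an interval of 17.3 to 3952. Among other folding enzymes 12 of 23 were higher and 2 lower, led by Ero1l, the oxidase that recharges disulfide isomerases (16.4-fold), and Pdia6 (6.90-fold). Of ER to Golgi transport genes 14 of 23 were higher, and of translocon and signal peptide genes 9 of 19.

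The PERK branch was represented by 21 CHOP and ATF4 targets, of which 15 were at least 2-fold higher, beside the same 10.3% of all genes, and 1, Slc7a11, lower (log2 ratio -1.20). Vldlr was 10.0-fold, Trib3, a pseudokinase induced by CHOP, 8.68-fold higher, and Sesn2 had a log2 ratio of 2.49. Of the sensors and their transcription factors 4 of 12 were higher: Atf6 4.64-fold, Ern1 (IRE1) 2.40-fold, and Atf4 and Xbp1 with log2 ratios of 1.16 and 1.05. Cytosolic heat shock genes went the other way: 9 of 16 were at least 2-fold lower, against 21.7% of all genes, and 0 higher. Hspa1a, the inducible cytosolic Hsp70, had 43.4 CPM in the Hspa5-high and 665 CPM in the Hspa5-low cells, and Cryab had a log2 ratio of -3.13. Stromal markers moved with them, at 127 CPM in the Hspa5-high and 659 CPM in the Hspa5-low cells, as did mesothelial markers at 0 and 31.3 CPM. Cryab itself had 789 CPM in control Pdgfra-positive and 105 CPM in control deep Epcam-positive cells. Beside the same 21.7% of all genes, 5 of 16 immediate early genes were at least 2-fold lower, among them Egr1 (-2.55) and Fos (-2.06). Heat shock and immediate early genes also respond to tissue dissociation, and the part of dissociation and of stromal transcripts in the difference was not tested. An Mki67 UMI was present in 2 of the 72 Hspa5-high and 11 of the 72 Hspa5-low cells.

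**Figure D4:**
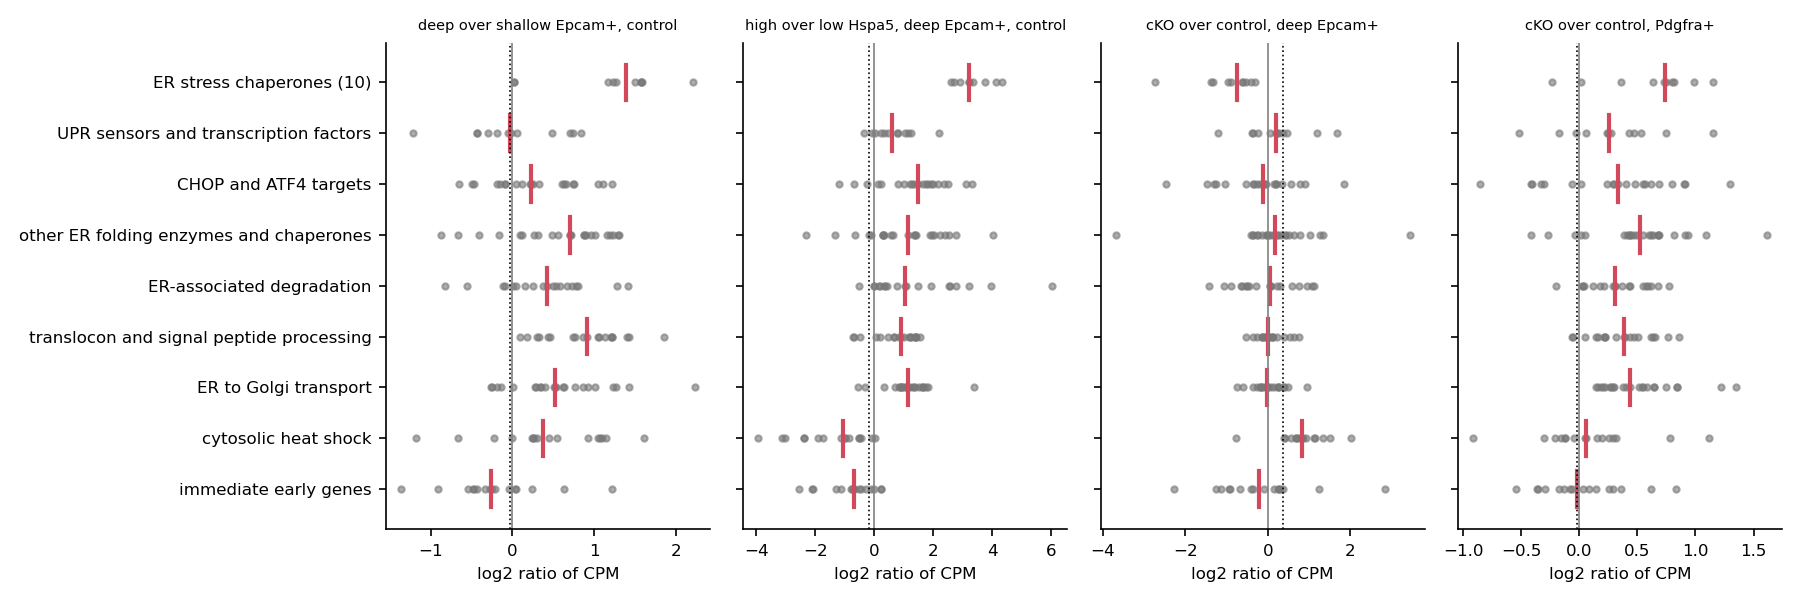
Log2 ratio of CPM for the genes of each list (grey points) and the list median (red bar) in 4 comparisons; the grey vertical line is 0 and the dotted line the median of all genes compared, and in the second panel Hspa5, which set the groups of cells, is left out of the first list. In that panel the medians of the ER lists lie to the right of 0, that of the 9 other members at 3.22, and the heat shock median to the left, at -1.07.

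Across the deep and shallow contrast in control, the lists that stood nearest to the members were those of protein entry into the ER. Of 19 translocon and signal peptide genes 9 were at least 2-fold higher (median log2 ratio 0.91), beside 7.67% of all genes, led by Spcs2, a subunit of the signal peptidase (3.63-fold). Other folding enzymes followed with 6 of 23 (median 0.70), ER to Golgi transport with 5 of 23 (0.53) and ER-associated degradation with 2 of 19 (0.42). CHOP and ATF4 targets had 3 of 21 (0.23), and the sensors 0 of 12 higher and 1, Ern1, lower (0.433-fold, median -0.03). Cytosolic heat shock had 5 of 16 higher and 1, Hsf1, lower (median 0.37), and immediate early genes 1 higher and 1, Ier2, lower of 16 (median -0.26). Of the 30 other genes in the matrices whose promoter window held the ER stress element 10 had enough UMIs. Among these 2 were higher, Pdia6 (log2 ratio 1.19) and Canx (1.15), and 2 lower. The 7.67% covers higher genes only, so the counts of lower genes in this contrast have no share beside them.

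Between libraries, the deep epithelial level was lower in cKO. The summed cKO to control ratio was 0.461 (0.454 to 0.469; log2 ratio -1.12), and all 10 genes had ratios below 1. At least 2-fold lower were 3 of 10, against 8.29% of all genes: Ddit3 (0.150), Hspa5 (0.383) and Creld2 (0.396). Hsp90b1 (0.508), Manf (0.542), Sdf2l1 (0.649), Dnajc3 (0.657), Pdia4 (0.691), Hyou1 (0.754) and Dnajb9 (0.806) had smaller differences. All genes had a median log2 ratio of 0.38, and 24.8% of them were at least 2-fold higher, so the members went against the general shift between these classes. With epithelial-led cells alone (32 and 271) the summed log2 ratio was -1.25. Hspa5 was then at -1.79, Ddit3 at -3.24 and Dnajb9 at -1.08, and Creld2 at -0.93 no longer passed 2-fold. Sdf2l1 at -0.10 was then nearly level.

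Neighbouring genes of the response in deep Epcam-positive cells lay on both sides, beside 8.29% of all genes at least 2-fold lower in cKO and 24.8% higher. CHOP and ATF4 targets had 5 of 21 lower, Ddit4 (0.181) and Nupr1 (log2 ratio -1.48) among them, and 1 higher, Phgdh (3.59). Other folding enzymes had 1 of 24 lower, Ero1l at 0.0771 (0.0698 to 0.0849), and 4 higher, with the highest ratios for Fkbp14 (11.2, from 52 and 15 UMIs), Cnpy3 (2.51) and Selenof (2.42). ER-associated degradation had 2 of 19 lower, Herpud1 (0.372) and Syvn1, the ubiquitin ligase, and 2 higher, Edem2 (2.18) and Vcp (2.11). Of the 12 sensors and their transcription factors 1 was lower, Ern1, and 2 were higher, Creb3l1 (3.18) and Creb3l2 (log2 ratio 1.19). The translocon genes had 0 of 19 past 2-fold either way, and ER to Golgi transport 0 of 23. Cytosolic heat shock genes had 5 of 16 higher, Cryab (4.04) the highest, and 0 lower. Immediate early genes had 2 of 16 higher, Klf2 (7.19) the highest, and 3 lower. The part of the stromal and plasma cell transcripts in these differences was not tested gene by gene.

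In shallow Epcam-positive cells the ratio was 0.822 (0.767 to 0.880). Ddit3 was at least 2-fold lower there too (0.140, 12 against 672 UMIs, interval 0.0720 to 0.246), 1 of 10 genes against 19.7% of all genes, and Dnajc3 was higher (2.02, interval 1.51 to 2.67), 1 of 10 against 27.4%. Stromal markers, the highest list in these cKO cells, summed to 3376 CPM there and 445 CPM in control, and lymphoid markers to 1989 and 77.2 CPM. Epithelial markers summed to 1793 against 11216 CPM, and the part of the other cell types was not tested. With epithelial-led cells (17 and 594) the summed log2 ratio was -0.53 and that of Dnajc3 0.50.

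The stroma went in the opposite direction. In Pdgfra-positive cells the 10 genes summed to 5174 CPM in cKO and 3616 CPM in control, a ratio of 1.43 (1.42 to 1.45), with 9 of 10 ratios above 1. By depth, the sum was lower in cKO below 2500 UMIs (3588 against 5244 CPM) and at 2500 to 5000 UMIs (4650 against 5197 CPM), and higher in cKO in the 4 ranges above. Hyou1 was the one gene at least 2-fold higher (71.7 and 159 CPM; 2.22, interval 2.05 to 2.40), 1 of 10 against 4.17% of all genes. Free RNA of Hyou1 differed in the same direction, at 65.6 CPM in control and 106 CPM in cKO, and the control stromal level lay near the former. Free RNA was also higher in cKO for Dnajc3 (84.95 and 135 CPM), Pdia4 (65.9 and 95.8 CPM) and Hsp90b1 (509 and 673 CPM). So it was for Dnajb9 (184 and 261 CPM), Manf (214 and 263 CPM) and slightly Hspa5 (1244 and 1267 CPM). For Creld2, Sdf2l1 and Ddit3 it was lower in cKO. Pdia4 (1.98) fell just short of that fold, and lower ratios above 1 were those of Hsp90b1 (1.76), Dnajc3 (1.74), Creld2 (1.67), Sdf2l1 (1.66) and Manf (1.55). Hspa5 had a ratio of 1.28, Dnajb9 was level (1.01, interval 0.972 to 1.05), and Ddit3 was lower (0.848). The median over the members was 0.74 and over all genes -0.02. Averaged over cells in place of UMIs the summed log2 ratio was 0.36, against 0.52. Epithelial markers were 637 CPM in control and 85.4 CPM in cKO Pdgfra-positive cells.

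Other ER genes in these stromal cells, where 4.17% of all genes were at least 2-fold higher, had medians of 0.52 for folding enzymes (2 of 24 at least 2-fold higher), 0.43 for ER to Golgi transport (2 of 23), 0.39 for the translocon (0 of 19), 0.34 for CHOP and ATF4 targets (1 of 21), 0.30 for degradation (0 of 19) and 0.26 for the sensors (1 of 12). Xbp1, the factor spliced by IRE1, was 2.22-fold higher (2.10 to 2.36), and Fkbp14, a prolyl isomerase that acts on collagen, 3.08-fold. Kdelr3, a receptor that returns chaperones to the ER, was 2.56-fold and Sec23a, a coat protein of ER exit vesicles, 2.33-fold higher. Cytosolic heat shock (0.05) and immediate early genes (-0.02) had medians near 0.

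**Figure D5:**
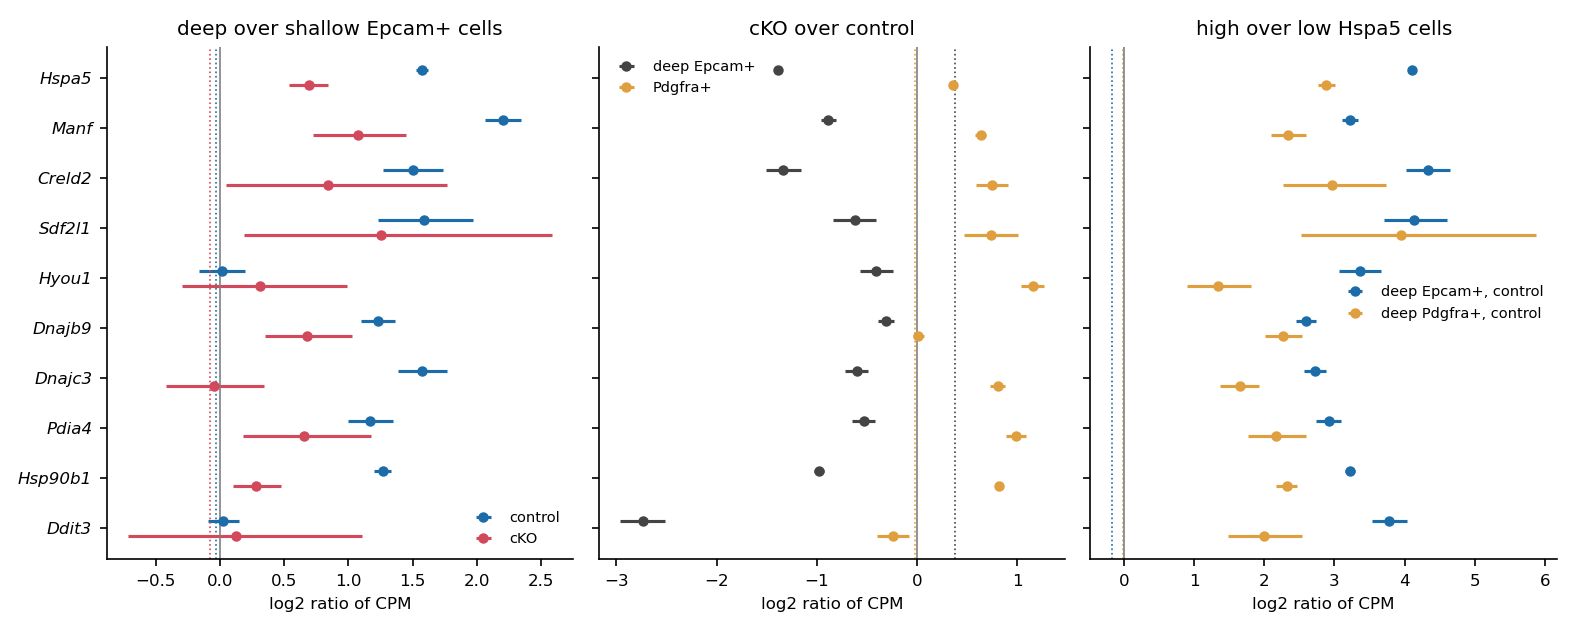
Log2 ratios of CPM with exact 95% intervals for each of the 10 genes: deep over shallow Epcam-positive cells in each library, cKO over control in deep Epcam-positive and Pdgfra-positive cells, and Hspa5-high over Hspa5-low deep cells in control; dotted lines are the medians of all genes compared. In the middle panel every deep Epcam-positive point is left of 0, and 9 of 10 Pdgfra-positive points are right of it.

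The last 3 classes followed. C1qa-positive cells had a summed cKO to control ratio of 0.752 (0.729 to 0.775), with 0 of 10 genes at least 2-fold lower (2.89% of all genes) and Dnajc3 (1.26), Hyou1 (1.33) and Pdia4 (1.08) above 1. Epithelial markers summed to 518 CPM in control and 34.6 CPM in cKO C1qa-positive cells, stromal markers to 2264 and 3899 CPM and red cell markers to 8.35 and 392 CPM, and their part was not tested. Actg2-positive cells had a ratio of 0.860 (0.838 to 0.883), with Ddit3 (0.329) the 1 gene of 10 at least 2-fold lower (6.10% of all genes) and Hyou1 at 1.83. The free RNA levels of both genes, given above, differed in the same direction, and the Actg2-positive levels of Ddit3 (84.8 and 27.9 CPM) lay below them. The direction of the summed ratio depended on cells of several classes: epithelial markers summed to 4991 CPM in control and 288 CPM in cKO Actg2-positive cells. Stromal markers summed to 4999 and 8119 CPM there and red cell markers to 28.7 and 611 CPM, and their part was not tested. In cells of no other class the log2 ratio was 0.57. Lymphoid cells had a ratio of 1.13 (1.09 to 1.17) and 0 of 10 genes at least 2-fold higher (5.33% of all genes), and the log2 ratio turned from 0.17 to -0.25 when 2 marker UMIs were required. In these cells B or plasma cell markers summed to 28.1 CPM in control and 1262 CPM in cKO, stromal markers to 2352 and 4087 CPM and epithelial markers to 755 and 111 CPM (control and cKO), and their part was not tested.

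Subsets of the control deep cells were set by a UMI of a single other gene. The 41 cells with a UMI of Ifnb1, which encodes interferon beta, had a summed level of 8383 CPM and the other 250 had 8455 CPM, while Ddit3 stood at 326 and 231 CPM. The 31 cells with an Mki67 UMI, a marker of cycling cells, held 5347 CPM against 8873 CPM in the 260 without. The genes whose levels followed the members' sum most closely over 12 points (6 classes in 2 libraries, 9715 genes compared) were Selenok (Pearson r = 0.87), Rheb (0.84), Psmd8 (0.84), Snx5 (0.81), Il13ra1 (0.81), Pdia6 (0.80), Ifrd1 (0.79) and Tnfaip1 (0.79). The points share libraries, free RNA and some cells, so r is a description. Each member was compared with the sum of the other members, without itself, and r ran from 0.28 for Dnajc3 and 0.32 for Hyou1 to 0.92 for Hspa5.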

How the data were processed

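Both samples were grouped by their titles. The deposited values were raw UMI counts per gene and barcode in unfiltered matrices, whose file headers name Cell Ranger 4, while the submitters' processing notes name Cell Ranger 6.1.1 and mm10. The members and gene lists were chosen with earlier results of these data known. All members are given, and genes of other lists were named from those with the 3 largest ratios either way, not all of which are printed. Xbp1 was named outside this rule in the ranking by Hspa5, after its value was seen. Counts were summed over the cells of a class and divided by all UMIs of that class (CPM), with exact Poisson intervals, and ratios have exact conditional binomial intervals. Genes with at least 50 UMIs in the 2 classes together were compared, and log2 ratios over all genes and lists carry a pseudocount of 0.5 UMI. A marker list led a cell when its summed UMIs exceeded those of the other lists. Doublets were kept: the caller in scanpy 1.11.5 marked 2 control cells and 0 cKO cells, its calls were not used, and cells with a score of at least 0.25 were left out as an alternative. Gene coordinates come from GENCODE M21 and promoters from RefSeq, both GRCm38. Ratios were checked on simulated counts drawn without variation between cells, so that check does not cover the spread over cells. Other software was Python 3.11.15, numpy 2.4.6, scipy 1.17.1 and pandas 2.3.3. No test was possible with 1 library per group.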

Additional observations from a re-analysis of the deposited data

Results flagged for a closer look

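The cKO to control ratio of the 10 genes lay above 1 in Pdgfra-positive cells and below 1 in deep Epcam-positive cells, with counting intervals on opposite sides of 1. The difference between the 2 classes was 1.63 on the log2 scale for the sum of all members (0.52 and -1.12). The same held for 8 of the 10 genes, with differences of 1.75 for Hspa5, 1.52 for Manf, 2.08 for Creld2, 1.36 for Sdf2l1, 1.56 for Hyou1, 1.41 for Dnajc3, 1.52 for Pdia4 and 1.79 for Hsp90b1. Dnajb9 was level in the stroma, and Ddit3 was lower in cKO in both classes. The difference itself was not tested, since each class has 1 library per group. Only 32 of the 74 cKO deep Epcam-positive cells were led by epithelial markers. With epithelial-led deep cells alone Sdf2l1 was nearly level, and 28.4% of its UMIs in the whole cKO deep class came from 1 cell. In control stroma Creld2 (38.4 CPM) and Sdf2l1 (13.9 CPM) lay below free RNA (42.3 and 20.95 CPM), while in cKO stroma both lay above it.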

How the results depend on the processing

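All values here are log2 ratios of the members' summed share, and no paired analysis was possible because each group has 1 library and no result comes from a test. The deep to shallow ratio in control, 1.41 as reported, was 1.35 with at most 10% mitochondrial UMIs, 1.50 as a mean over cells, 1.52 with cells thinned to 1000 UMIs, 1.50 without mitochondrial and ribosomal protein genes, 1.55 with shallow set under 5000 UMIs and 1.45 in epithelial-led cells, an alternative chosen after seeing the data. In cKO (0.57) it was 0.32 with 2 marker UMIs, 0.87 with shallow under 5000 UMIs and 0.74 in epithelial-led cells. The cKO to control ratio in deep Epcam-positive cells (-1.12) was -1.14 with 2 marker UMIs and in cells of 1 class, -1.19 with the 10% limit and when thinned, -1.23 as a mean over cells, -1.08 with deep from 30000 UMIs and -1.25 in epithelial-led cells. In shallow cells (-0.28) it was -0.085 with 2 marker UMIs, -0.39 in cells of 1 class, -0.40 with the 10% limit, -0.43 under 5000 UMIs and -0.53 in epithelial-led cells. In Pdgfra-positive cells (0.52) it was 0.58 with 2 marker UMIs, 0.60 in cells of 1 class, 0.50 with the 10% limit, 0.36 as a mean over cells, 0.37 thinned and 0.56 without high doublet scores. In C1qa-positive cells (-0.41) it was -0.36 with 2 marker UMIs, -0.46 in cells of 1 class and -0.33 as a mean over cells. The Actg2-positive ratio (-0.22) turned to 0.35 with 2 marker UMIs and 0.57 in cells of 1 class, and was -8.3e-05 as a mean over cells, -0.075 thinned and -0.26 without mitochondrial and ribosomal genes. The lymphoid ratio (0.17) turned to -0.25 with 2 marker UMIs, and was 0.10 as a mean over cells, 0.25 thinned and 0.098 without those genes. The cause of these shifts was not tested. Requiring 1000 genes per cell moved none of these 8 ratios beyond its counting interval, nor did subtracting the cell-free profile, which took away only 0.115% to 3.55% of a class's UMIs and so could move them little.

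For single members 14 of 813 alternative values turned the direction and 176 others moved beyond the counting interval. With 2 marker UMIs these were Pdia4 in cKO deep to shallow (-0.28) and in lymphoid cells (-0.096), Hspa5 in shallow Epcam-positive (0.033) and Actg2-positive cells (0.27), and Manf in Actg2-positive cells (0.53). In cells of 1 class they were Ddit3 in Pdgfra-positive cells (0.13) and Hspa5 (0.61), Manf (0.55), Creld2 (0.79) and Sdf2l1 (0.14) in Actg2-positive cells. Thinned, they were Creld2 in cKO deep to shallow (-0.17), Manf in Actg2-positive cells (0.17) and Ddit3 in C1qa-positive cells (0.34), and in epithelial-led cells Pdia4 in cKO deep to shallow (-0.098). Depth limits the cKO shallow Epcam-positive class most: it held 351933 UMIs, of which Sdf2l1 had 7, Ddit3 12 and Creld2 13.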
